A study of Mus musculus with 6 samples.

Results

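Described here are 9 genes of Polycomb repressive complex 1 (PRC1), namely Cbx2, Cbx6, Cbx7, Cbx8, Ring1, Rnf2, Bmi1, Pcgf2 and Pcgf3, taken by gene symbol from the 32285 genes of the count table. PRC1 belongs to the Polycomb system, which keeps developmental genes silent. Its RING proteins, RING1 and the paralogue RNF2, attach ubiquitin to histone H2A, and each complex pairs a RING protein with a PCGF protein, such as PCGF2, BMI1 or PCGF3, which sets the type of complex. In canonical complexes a chromobox protein (CBX2, CBX6, CBX7 or CBX8) binds H3K27me3, the histone mark that the partner complex PRC2 lays down. In the brain, BMI1 is best known for the self-renewal of neural stem cells, where it represses the cell cycle inhibitor locus Cdkn2a.

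Transcripts were counted in droplet-captured nuclei (single-nucleus RNA sequencing, snRNA-seq) of frozen forebrain from 3 WT and 3 Npc1-/- mice at postnatal day 16 (P16), none of them treated. The mice were F1 hybrids of BALB/cJ and C57BL6/J, and the null allele was carried in the germline, so that all cell types of Npc1-/- mice lacked the lysosomal cholesterol transporter NPC1. The counts of both genotypes came joined in 1 table, where a barcode suffix from 1 to 6 names the library, and the sources used here do not say which mouse a suffix stands for. WT and Npc1-/- mice were therefore not compared, each class of nuclei below holds both genotypes in unknown shares, and library values are given as lowest, median and highest.

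The libraries held between 51343653 and 107583300 unique molecular identifiers (UMIs, 1 per captured transcript molecule), and Npc1 itself lay between 25.5 and 32.2 UMIs per 1000000 UMIs (CPM) over them, which checks no label as no library is assigned to a genotype. Of 75867 nuclei kept, 36277 (47.8%) were assigned to 14 classes by lists of marker genes, from 235 choroid plexus nuclei to 10048 excitatory neuron nuclei. In each class all markers of its list were higher than over the other classes, although the excitatory list still reached between 14.2% and 26.0% of its own-class level in the other 13 classes. The same markers assigned the nuclei, so this is no independent check of the classes. The weakest marker was only 1.23-fold higher in inhibitory neurons and 1.48-fold in excitatory neurons. Median depth ran from 2401 UMIs in microglia to 9220 in excitatory neurons. After removal of the suffix, 631 barcode sequences occurred in 2 or more libraries. Levels by class are CPM within the class, with exact Poisson intervals at 95% that cover counting error only. A level is compared between classes for the same gene, never between genes, since these counts are not scaled to length. Fewer transcripts in a nucleus and a larger share of other transcripts cannot be told apart on this scale.

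Libraries 5 and 6 stood apart from the other 4 for several of the 9 genes, most for Cbx6 and Ring1. Over all nuclei, Cbx6 lay at 54.9 and 51.6 CPM in these libraries and between 82.8 and 102.2 CPM in the other 4, and Ring1 at 14.5 and 14.8 CPM against 20.3 to 22.7 CPM. Rnf2 went the other way, with 35.5 and 36.4 CPM in libraries 5 and 6 and 27.5 to 29.6 CPM in the others. They were also the lowest pair for Cbx7 (5.83 and 6.86 CPM against 7.60 to 8.44), Bmi1 and Pcgf3, by smaller gaps for the last 2. Libraries 5 and 6 were the lowest pair for Cbx6 in 12 of the 14 classes and for Ring1 in 7, and the highest pair for Rnf2 in 6. For the 6 genes other than Cbx6, Ring1 and Rnf2 the highest library exceeded the lowest by 1.16-fold (Pcgf3) to 1.45-fold (Cbx7). What set these libraries apart was not tested, and the ratios and calls of the PRC1 genes and the class with their highest level were also computed without them.

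**Figure D1:**
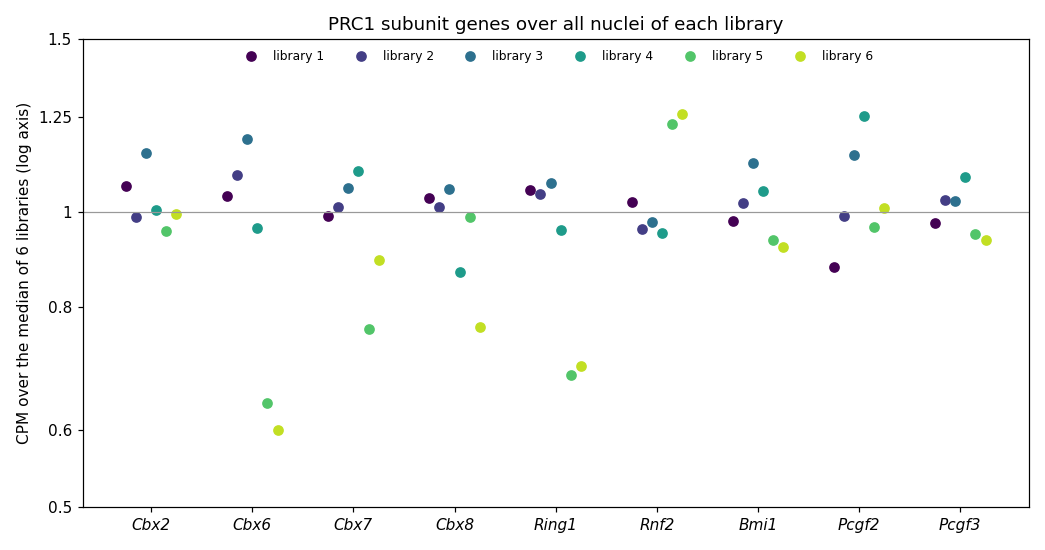
Level of each PRC1 gene over all kept nuclei of a library, divided by the median of the 6 libraries (log axis); each point is 1 library. Libraries 5 and 6 lie below the other 4 for Cbx6 (54.9 and 51.6 CPM) and Ring1 (14.5 and 14.8 CPM) and above them for Rnf2 (35.5 and 36.4 CPM).

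The genes differed in the number of UMIs behind their levels. Cbx2 was counted with 382 UMIs in all kept nuclei and Cbx8 with 2395, whereas Pcgf3 had 19378 and Cbx6 41399. Pcgf2 varied most among the classes, by 5.20-fold between the highest and the lowest, and Pcgf3 least, by 2.03-fold. Cbx2 is left out of this order because choroid plexus nuclei held none of its UMIs, which allows up to 2.31 CPM (3 counts).

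**Figure D2:**
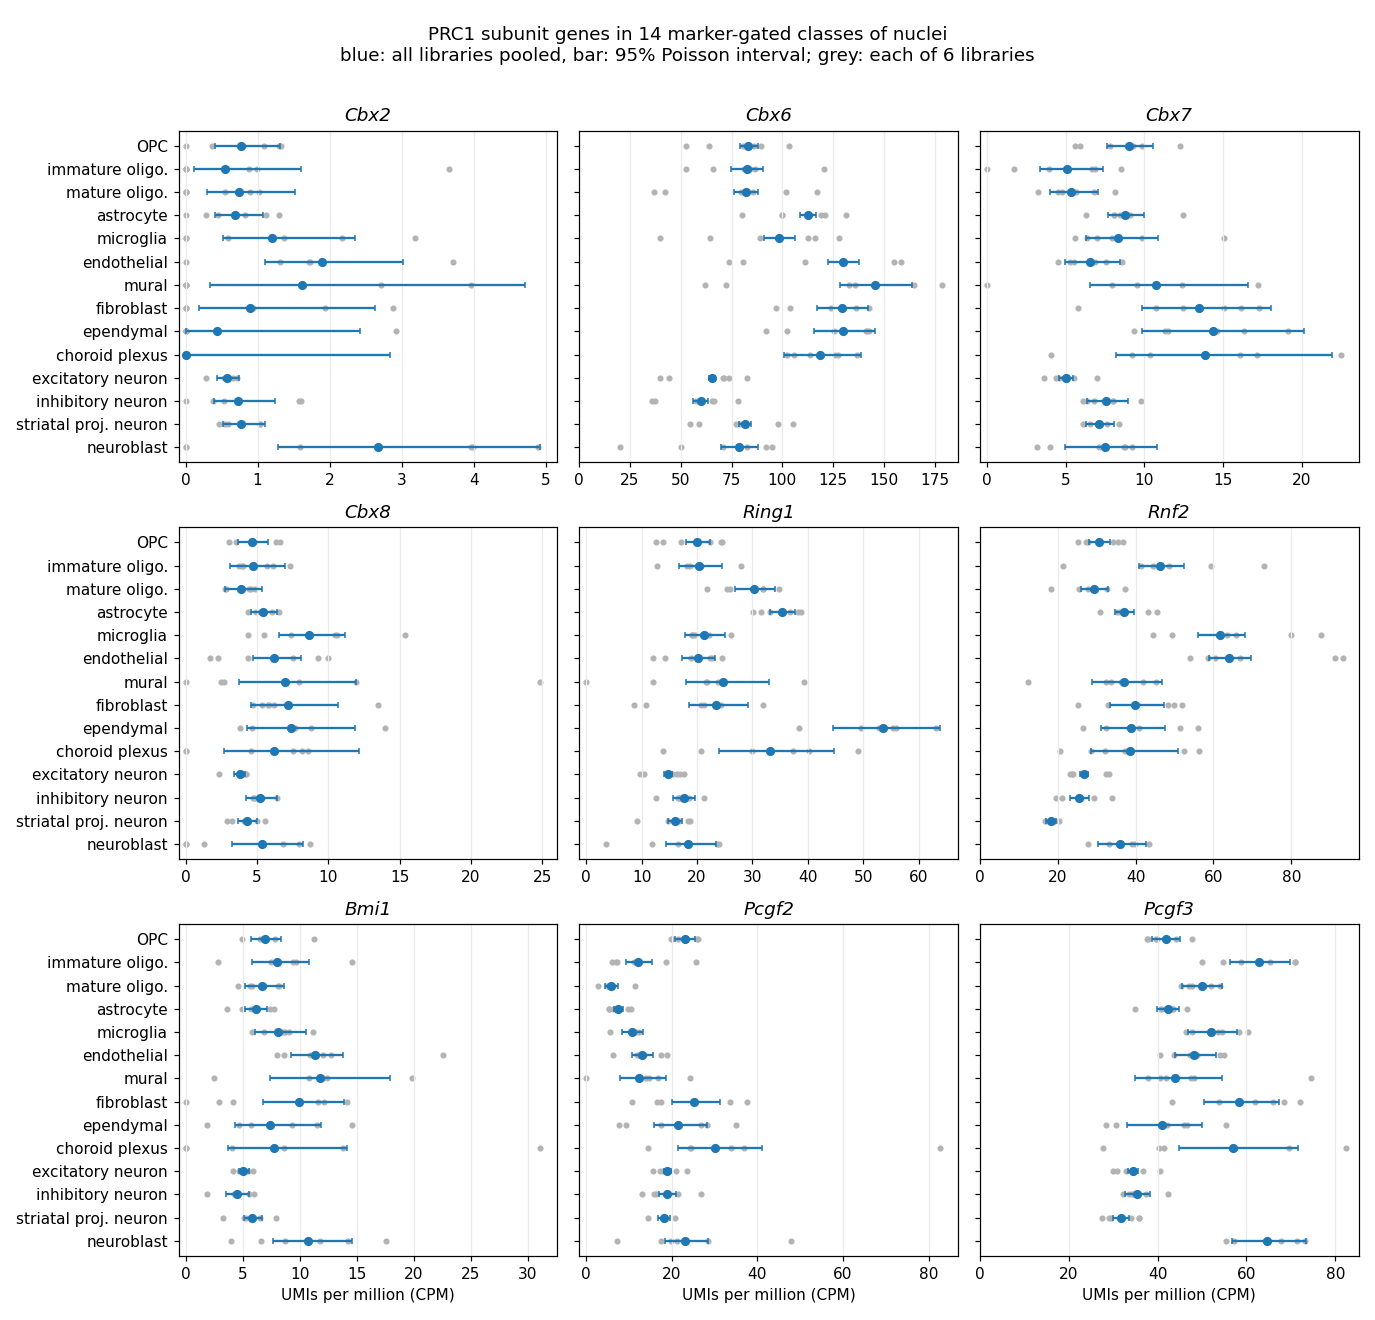
Levels of the 9 PRC1 genes (CPM, horizontal axis from 0) in 14 classes; blue points are pooled values with 95% Poisson intervals and grey points are the 6 libraries. Ring1 peaks in ependymal nuclei at 53.5 CPM, Rnf2 in endothelial nuclei and microglia at 64.1 and 61.8 CPM, and Pcgf2 spans 5.78 CPM in mature oligodendrocytes to 30.0 CPM in choroid plexus; per nucleus, the highest class changes for 6 of the 9 genes.

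The catalytic RING genes had their highest levels in different classes. Ring1 was highest in ependymal nuclei, the ciliated lining of the ventricles, at 53.5 CPM (44.5 to 63.9), with library values of 38.4, 54.1 and 63.1 CPM as lowest, median and highest. Astrocytes followed at 35.3 CPM (33.1 to 37.7), choroid plexus at 33.1 and mature oligodendrocytes at 30.3, and excitatory neurons were lowest at 14.7 CPM, with library values of 9.66 to 17.6. The ependymal and astrocyte intervals did not overlap, and ependymal nuclei were the highest class in 5 of the 6 libraries, while the other 12 neighbouring pairs in the order had overlapping intervals. Ring1 lies at chr17:34020792-34024680 on the minus strand (GRCm38, GENCODE M21).

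Rnf2, whose protein RNF2 (also called RING1B) is known as the main H2A ubiquitin ligase of embryonic cells, was highest in endothelial nuclei at 64.1 CPM (58.9 to 69.5) and in microglia at 61.8 CPM (56.0 to 68.1). These 2 classes could not be separated, but both lay above immature oligodendrocytes, the next class, at 46.4 CPM (40.9 to 52.5). Rnf2 lies at chr1:151458004-151500955 on the minus strand, and over 3029 bases it shares that strand with Gm36527, which the count table does not list. Striatal projection neurons were lowest at 18.3 CPM (16.9 to 19.7), with library values between 16.6 and 20.4 CPM, and did not overlap inhibitory neurons at 25.5 CPM (23.2 to 27.9). Per nucleus the order changed, and neuroblasts led with 289 Rnf2 UMIs per 1000 nuclei.

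The share of Ring1 in the UMIs of both RING genes describes this contrast without any scaling to depth. The share does not say which gene was more abundant, since each gene is captured with its own efficiency, but it can be set side by side between classes. Ring1 made up 58.0% in ependymal nuclei (95% exact binomial interval 51.1 to 64.7), 50.9% in mature oligodendrocytes and 48.7% in astrocytes. It was 25.5% in microglia (22.0 to 29.4) and 23.9% in endothelial nuclei (20.9 to 27.1). The microglial share was below the astrocyte share in 6 of 6 libraries, by 18.1 to 29.9 percentage points, and the endothelial share likewise by 16.8 to 34.8 points.

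**Figure D3:**
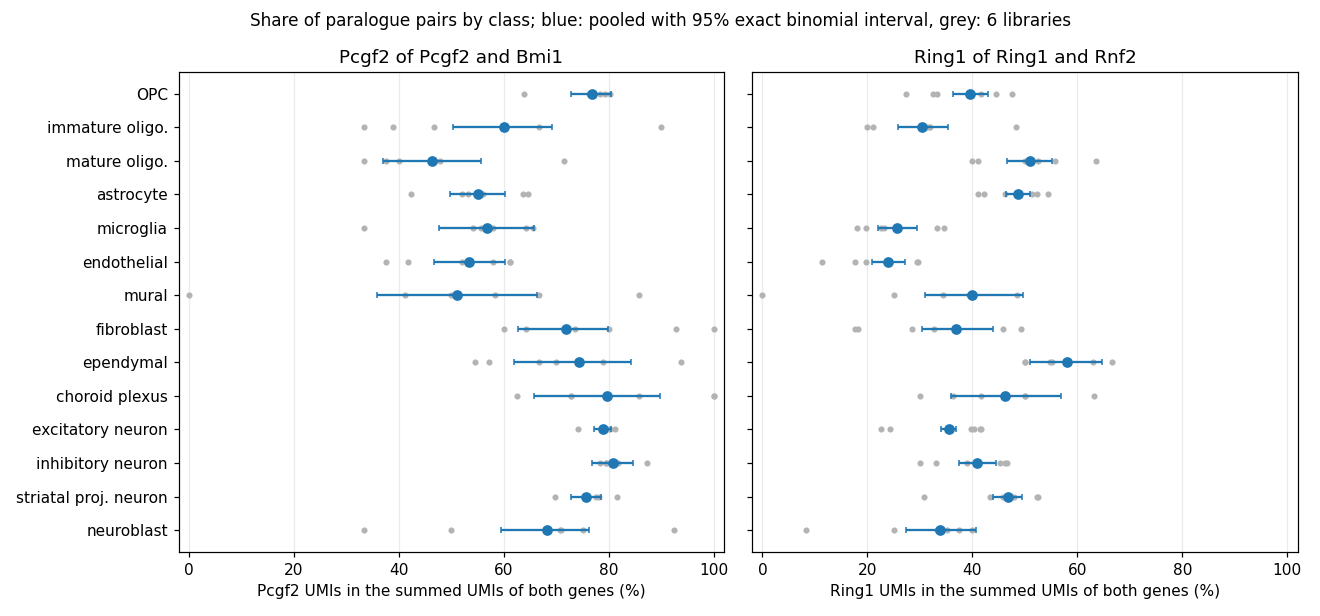
Share of Pcgf2 in the UMIs of Pcgf2 and Bmi1 (left) and of Ring1 in the UMIs of Ring1 and Rnf2 (right), in percent, for 14 classes; blue points are pooled values with 95% exact binomial intervals and grey points the 6 libraries. The Pcgf2 share is 76.8% in OPCs and 46.2% in mature oligodendrocytes, and the Ring1 share is 23.9% in endothelial nuclei and 58.0% in ependymal nuclei.

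Among the PCGF genes, Pcgf2 (chr11:97688823-97700497, minus strand) encodes MEL18, the paralogue of BMI1 in canonical PRC1. Pcgf2 was highest in choroid plexus, the secretory epithelium of the ventricles, at 30.0 CPM (21.4 to 41.1), from only 39 UMIs and with library values from 14.3 to 82.7 CPM. Fibroblasts (25.2 CPM), neuroblasts (23.0), oligodendrocyte progenitor cells (OPCs, 23.0) and ependymal nuclei (21.3) came next, and these 5 classes had overlapping intervals. The 3 neuron classes lay close together, from 18.1 CPM in striatal projection neurons to 18.9 CPM in excitatory and inhibitory neurons. Mature oligodendrocytes at 5.78 CPM (4.35 to 7.52) and astrocytes at 7.50 CPM (6.49 to 8.62) were lowest.

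In pooled counts, neurons differed from the non-neuronal classes for Pcgf2 in the opposite direction to the other 8 genes on this scale. Pooled over excitatory, inhibitory and striatal projection neurons, Pcgf2 was higher than over the 10 non-neuronal classes by a log2 ratio of 0.51 (0.41 to 0.61), with 0.33 to 0.74 in the libraries. The single classes were split. For Pcgf2, 4 of the 10 non-neuronal classes (choroid plexus, fibroblasts, OPCs and ependymal nuclei) lay above all 3 neuron classes and 6 below. With TMM scaling, 1 lay above and 8 below. The other 8 genes had log2 ratios from -0.85 (Ring1) to -0.46 (Cbx8), around the median of -0.52 over 20442 genes, so these values were close to what all genes showed. With TMM scaling, which assumes that most genes do not differ, Pcgf2 was at 0.92 and the other 8 genes between -0.43 and -0.04. Per nucleus all 9 genes were higher in neurons, with Pcgf2 at 1.67 and the others between 0.31 and 0.70 against a median of 0.65 over all genes. These neuron nuclei held medians of 7156 to 9220 UMIs, above the 2401 to 4924.5 of the non-neuronal classes. The direction for the other 8 genes depended on the scaling, whereas pooled Pcgf2 was higher in neurons under all 3.

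The stretch before the RefSeq start of Pcgf2 held fewer CpG dinucleotides than those of the other genes with an entry. It is printed here beside that of Bmi1 because the balance of this pair varied along the oligodendrocyte lineage. The stretches are the 250 bases before the RefSeq start (GRCm38.p6), 5′ to 3′ on the strand of the gene, and capitals mark CpG dinucleotides. Pcgf2 lies at chr11:97699649-97699898 on the minus strand and Bmi1 at chr2:18676768-18677017 on the plus strand.
Pcgf2 promoter: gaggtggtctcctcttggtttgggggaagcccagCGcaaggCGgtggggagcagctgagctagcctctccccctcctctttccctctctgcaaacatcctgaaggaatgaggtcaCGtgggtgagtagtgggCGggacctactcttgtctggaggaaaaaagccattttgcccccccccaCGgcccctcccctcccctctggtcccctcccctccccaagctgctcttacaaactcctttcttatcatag
Bmi1 promoter: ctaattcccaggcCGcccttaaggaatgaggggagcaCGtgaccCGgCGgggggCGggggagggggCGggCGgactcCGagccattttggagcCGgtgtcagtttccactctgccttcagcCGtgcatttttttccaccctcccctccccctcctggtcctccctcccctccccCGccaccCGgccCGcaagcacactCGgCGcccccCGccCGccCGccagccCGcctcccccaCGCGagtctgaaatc
The Pcgf2 stretch held 5 CpGs, fewer than the median of 6 over 32851 RefSeq promoters of this length, and 44.4% of them held fewer. The Bmi1 stretch held 21, and the other 6 genes with a promoter in the table held between 16 (Pcgf3) and 30 (Ring1). For Pcgf2 the gene annotation (GENCODE M21) begins 849 bases further upstream, so the printed stretch lies inside the annotated gene. Its low CpG count may therefore not describe the promoter in use. The annotation also begins further upstream for Cbx7 (38473 bases) and Cbx6 (355 bases), while for Bmi1 the starts coincided. Cbx2 was not in the promoter table. The E-box CACGTG, searched on both strands, was found in 4 of the 8 promoters (Cbx6, Cbx8, Bmi1 and Pcgf2) and in 6.02% of all promoters. It was the most frequent of several motifs searched. The CCAAT box was found for Cbx7 and Cbx8 only, and in 33.8% of all promoters, and the E2F, NRF1, YY1 and SOX sites for no member. CACGTG itself holds a CpG, and the 6.02% is not matched for CpG count, so no enrichment can be read from it. Such a match is a description of letters and shows no binding.

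Bmi1 (chr2:18677018-18686629, plus strand) was sparse, with 2920 UMIs in all, and was highest in mural nuclei, the contractile cells of vessel walls, at 11.8 CPM (7.40 to 17.9), in endothelial nuclei at 11.3 CPM (9.23 to 13.7) and in neuroblasts at 10.7 CPM (7.63 to 14.6). Inhibitory neurons were lowest at 4.48 CPM (3.55 to 5.58). All 13 neighbouring pairs of classes overlapped, and mural nuclei were the highest class in 2 of 6 libraries.

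Pcgf3 (chr5:108461232-108506976, plus strand), the core of a variant PRC1 that lacks chromobox proteins, was the most even of the genes. It ran from 31.8 CPM (30.0 to 33.7) in striatal projection neurons to 64.7 CPM (56.8 to 73.3) in neuroblasts, the young neurons of the postnatal forebrain, with immature oligodendrocytes close to the latter at 62.8 CPM (56.4 to 69.8). Library values for neuroblasts lay between 55.4 and 73.3 CPM and those for striatal projection neurons between 27.6 and 35.9 CPM, with no overlap. No neighbouring classes in the order had separate intervals.

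Of the chromobox genes, Cbx6 was highest in mural, ependymal, endothelial and fibroblast nuclei, at 145, 130.1, 129.9 and 129 CPM, which could not be separated from each other. Choroid plexus followed at 119 CPM (101 to 139), an interval that overlapped those of all 4. Astrocytes lay at 113 CPM (109 to 117) and microglia at 98.4 CPM (91.0 to 106), each clear of the next class. The 3 oligodendrocyte stages were within 82.1 to 83.4 CPM, and inhibitory neurons were lowest at 59.8 CPM (56.2 to 63.5). Libraries spread widely within a class, from 39.7 to 128 CPM in microglia. Cbx6 (chr15:79823896-79834688, minus strand) shares 10342 bases with Npcd on the same strand, and Npcd is not among the genes of the count table, so reads of the shared stretch cannot be told apart.

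Cbx7, known for binding H3K27me3 together with noncoding RNA, was highest in ependymal (14.4 CPM, 9.88 to 20.2), choroid plexus (13.9) and fibroblast nuclei (13.5) and lowest in excitatory neurons (5.02 CPM, 4.60 to 5.47) and in immature and mature oligodendrocytes (5.12 and 5.36). Cbx8 ranged from 3.78 CPM (3.42 to 4.18) in excitatory neurons to 8.66 CPM (6.57 to 11.2) in microglia. Cbx2 had at most 60 UMIs in any of the 14 classes, and its highest value, 2.67 CPM (1.28 to 4.91) in neuroblasts, rested on 10 UMIs. For these 3 genes all 13 neighbouring pairs of classes overlapped. Cbx2 and Cbx8 lie 5034 bases apart on chromosome 11, and Cbx6 and Cbx7 81118 bases apart on chromosome 15.

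The oligodendrocyte lineage was divided by its markers into 3 stages, namely OPCs, which still divide (3371 nuclei), the immature stage (1212) and the mature stage, which forms myelin (1690). Mature nuclei were unevenly spread over the libraries, with 523, 574 and 345 in libraries 1, 2 and 5 and as few as 68 in the others, so the pooled mature values rest mostly on the former. OPC nuclei numbered 628, 712 and 536 in libraries 1, 2 and 5 and 664, 480 and 351 in the others. The study reported fewer immature and mature oligodendrocytes in Npc1-/- mice. The mix of genotypes may therefore differ between the stages, and stage and genotype cannot be told apart in the pooled ratios. A gene was called where the pooled CPM ratio passed 1.5-fold and all 6 libraries lay on the same side, among genes with at least 50 UMIs over both classes. The joined matrix was treated as 1 sample and its libraries, whose mice are not known, not as replicates of a group, so no test was made. Cbx2 did not pass the filter on UMIs in these comparisons, and the other 8 genes did.

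Pcgf2 was lower at each later stage of the lineage in CPM. In OPCs it lay at 19.8, 22.4 and 26.0 CPM (lowest, median and highest library), in immature oligodendrocytes at 6.12, 9.28 and 25.7 CPM, and in mature oligodendrocytes at 2.82, 5.29 and 11.4 CPM. All libraries of the mature stage were below all libraries of OPCs, while the immature values overlapped both. Mature over OPC, the log2 ratio was -1.99 (-2.43 to -1.58) with -2.81 to -1.19 over the libraries, the largest ratio among the 8 PRC1 genes and at percentile 4.05 of the genes tested.

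Cbx7 was also lower in the later stages, at 8.58 CPM in the median OPC library against 5.32 in immature and 5.21 in mature oligodendrocytes. Over OPCs, immature oligodendrocytes had a log2 ratio of -0.82 (-1.45 to -0.23, 28 UMIs, none of them in library 6, which counted as below OPCs) and mature oligodendrocytes -0.75 (-1.24 to -0.28, 51 UMIs), and the library values of the stages overlapped. The RING genes changed between different stages instead. Ring1 was higher in mature oligodendrocytes than in OPCs, with libraries of 21.9, 28.9 and 34.8 against 12.6, 19.8 and 24.5 CPM, which overlapped, and a log2 ratio of 0.60 (0.36 to 0.83). Rnf2 was highest in the immature stage (46.4 CPM) and lower in the mature stage (29.2 CPM), with a log2 ratio of -0.67 (-0.92 to -0.42) between them and all 6 libraries below 0. For immature over OPC, Rnf2 was not called, since its log2 ratio of 0.60 (0.38 to 0.82) was above 0 in 5 of 6 libraries and at -0.24 in the lowest. For mature over OPC, Rnf2 had a log2 ratio of -0.07 (-0.28 to 0.14), so only Ring1 was called between these stages.

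Pcgf3 was higher in immature oligodendrocytes than in OPCs in 6 of 6 libraries. Its log2 ratio of 0.59 (0.40 to 0.77) lay at the 1.5-fold limit, and it was no longer called without libraries 5 and 6 or without library 1, 3 or 5. Ring1 was no longer called in mature oligodendrocytes without library 1, 4 or 6, Cbx7 without library 2 for mature over OPC, and Rnf2 without library 1, although each kept its direction. With TMM scaling, Pcgf2 for immature over OPC, Cbx7 for mature over OPC and Rnf2 for mature over immature were not called either. Per nucleus, Pcgf3 for immature over OPC, Cbx7 for mature over OPC and both Pcgf2 and Rnf2 for mature over immature lost their calls. Without the deepest nuclei, Cbx7 and Pcgf3 for immature over OPC, Ring1 for mature over OPC and Pcgf2 for mature over immature did so, and by the median of the libraries Pcgf3 for immature over OPC and Cbx7 and Ring1 for mature over OPC. With other lists held to 25% or less, Pcgf2 for immature over OPC and Rnf2 for mature over immature were not called. With the own list at 50% or more, Cbx7 was called in neither comparison with OPCs and Pcgf3 was not called for immature over OPC. Pcgf2 for mature over OPC was called under all alternatives but the stricter gate, which left too few nuclei. Cbx6 did not differ beyond its counting interval between any 2 stages, with log2 ratios from -0.02 to -0.01 and bounds within -0.17 and 0.16, but its libraries ran from -0.81 (library 5) to 0.24 for mature over OPC, and libraries 5 and 6 lay at -0.52 and -0.63 for mature over immature. Bmi1 and Cbx8 had log2 ratios between -0.29 and 0.21, with intervals that all held 0.

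**Figure D4:**
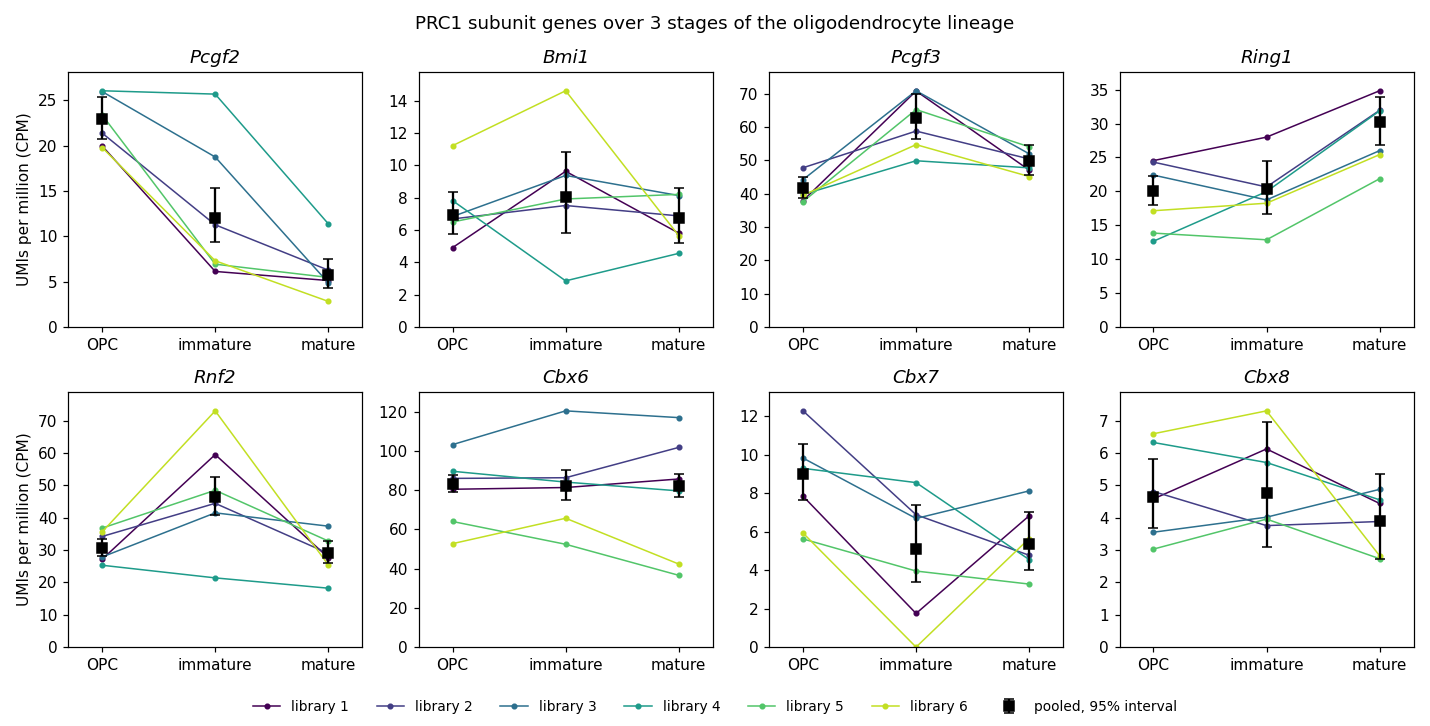
Levels (CPM, axis from 0) of 8 PRC1 genes in OPCs, immature and mature oligodendrocytes; coloured lines are the 6 libraries and black squares the pooled values with 95% Poisson intervals. Pcgf2 goes from 23.0 to 12.1 to 5.78 CPM, Rnf2 is highest in the immature stage at 46.4 CPM and Ring1 in the mature stage at 30.3 CPM.

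Set against all genes, the PRC1 genes were called about as often as others. For immature over OPC, 1 of 8 was higher (Pcgf3) and 2 lower (Pcgf2 and Cbx7), where 8.01% of 14491 genes were called higher and 15.7% lower. For mature over OPC, 1 of 8 was higher (Ring1) and 2 lower (Pcgf2 and Cbx7), against 10.8% and 21.5% of 14929 genes. From immature to mature, none was higher and 2 were lower (Pcgf2 and Rnf2), against 8.72% and 10.4% of 13056 genes. The median log2 ratio of the 8 genes was 0.02, -0.06 and -0.27 in these comparisons, beside -0.02, -0.13 and -0.11 over all genes.

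The balance of the paralogues shifted with these levels. The share of Pcgf2 in the UMIs of Pcgf2 and Bmi1 was 76.8% in OPCs (72.9 to 80.4), 60.0% in immature (50.2 to 69.2) and 46.2% in mature oligodendrocytes (37.0 to 55.6), and the mature share was below that of OPCs in 6 of 6 libraries, by 5.49 to 41.7 percentage points. Ring1 made up 39.5% of the RING UMIs in OPCs, 30.4% in immature and 50.9% in mature oligodendrocytes. Against OPCs, the immature share was lower in 5 of 6 libraries (-15.5 to 14.9 points) and the mature share higher in 5 of 6 (-3.54 to 30.3 points). The rise from the immature to the mature stage was seen in 6 of 6 libraries, by 9.91 to 30.0 points. Pcgf3 took 58.3% of the UMIs of the 3 PCGF genes in OPCs (55.5 to 61.1) and 80.0% in mature oligodendrocytes (76.5 to 83.1), higher in all 6 libraries by 16.3 to 28.1 points.

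Dividing OPCs were compared with resting OPCs because BMI1 is best known from dividing progenitors. Only 145 OPC nuclei carried at least 3 of 11 markers of division, between 13 and 33 per library. None of the 8 PRC1 genes that passed the filter was called, where 4.11% of 13805 genes were called higher and 5.34% lower. Bmi1 itself had only 6 UMIs in dividing OPCs and a log2 ratio of 0.24 (-1.24 to 1.41), with 3 libraries above 0 and 3 below, too few to answer for this gene. Rnf2 had 32 UMIs and a log2 ratio of 0.53 (-0.03 to 1.05), Pcgf2 22 UMIs and 0.40 (-0.29 to 1.02), and Ring1 10 UMIs and -0.58 (-1.65 to 0.32). Among the 8 genes the intervals left room for changes past 1.5-fold for 7 of the 8 genes, all but Pcgf3. Without library 4, 1 gene was called, but the rule then asks fewer libraries to agree, and the share of all genes called is not given for it.

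In the GABAergic series, neuroblasts (467 nuclei) were compared with inhibitory neurons (1998 nuclei). Pcgf3 lay between 55.4 and 73.3 CPM in the neuroblast libraries, median 65.9, and between 32.2 and 42.4 CPM in those of inhibitory neurons, median 34.3, without overlap. It was the only one of 8 genes called lower in inhibitory neurons, with a log2 ratio of -0.87 (-1.09 to -0.65), where 12.9% of 13995 genes were called lower and 6.12% higher. Per nucleus, its log2 ratio was -0.71 against -0.05 for the median gene, and the call was lost because not all libraries lay on the same side. Bmi1 had a pooled log2 ratio of -1.25 (-1.82 to -0.67), larger than that of Pcgf3, but 1 library lay above 0. Without library 6, 2 genes were called, and without libraries 5 and 6, 3 genes. With fewer libraries the rule asks fewer of them to agree, and the share of all genes called is not given for it.

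Excitatory neurons and astrocytes, the largest neuronal and glial classes, were compared over 10048 and 6497 nuclei, and all 9 genes passed the filter. On the CPM scale Pcgf2 was the only gene called higher in neurons, at 18.9 against 7.50 CPM, with libraries of 15.7, 18.2 and 23.5 CPM for neurons and 5.38, 6.56 and 10.4 CPM for astrocytes, which did not overlap. Its log2 ratio was 1.33 (1.12 to 1.55). Ring1 (-1.27, -1.38 to -1.15), Cbx7 (-0.81, -1.03 to -0.58) and Cbx6 (-0.79, -0.85 to -0.72) were called lower, but per nucleus they had log2 ratios of 0.10, 0.56 and 0.58, the opposite sign. Counted per 1000 nuclei, Rnf2 (280 UMIs in neurons against 151 in astrocytes), Pcgf3 (360 against 172), Bmi1 (52.9 against 24.9), Cbx8 (39.6 against 22.2) and the sparse Cbx2 (5.97 against 2.77) were also past 1.5-fold higher in neurons. On that scale the median gene was itself past 1.5-fold (0.92), with 81.9% of all genes above 0, so this is not particular to the PRC1 genes. With TMM scaling only Pcgf2 and Ring1 were called. Here 15.8% of 18446 genes were called higher and 38.9% lower, and the median over all genes was -0.44, 0.00 with TMM scaling and 0.92 per nucleus. Relative to the median gene on the CPM scale, only Ring1 and Pcgf2 lay more than 1.5-fold away.

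**Figure D5:**
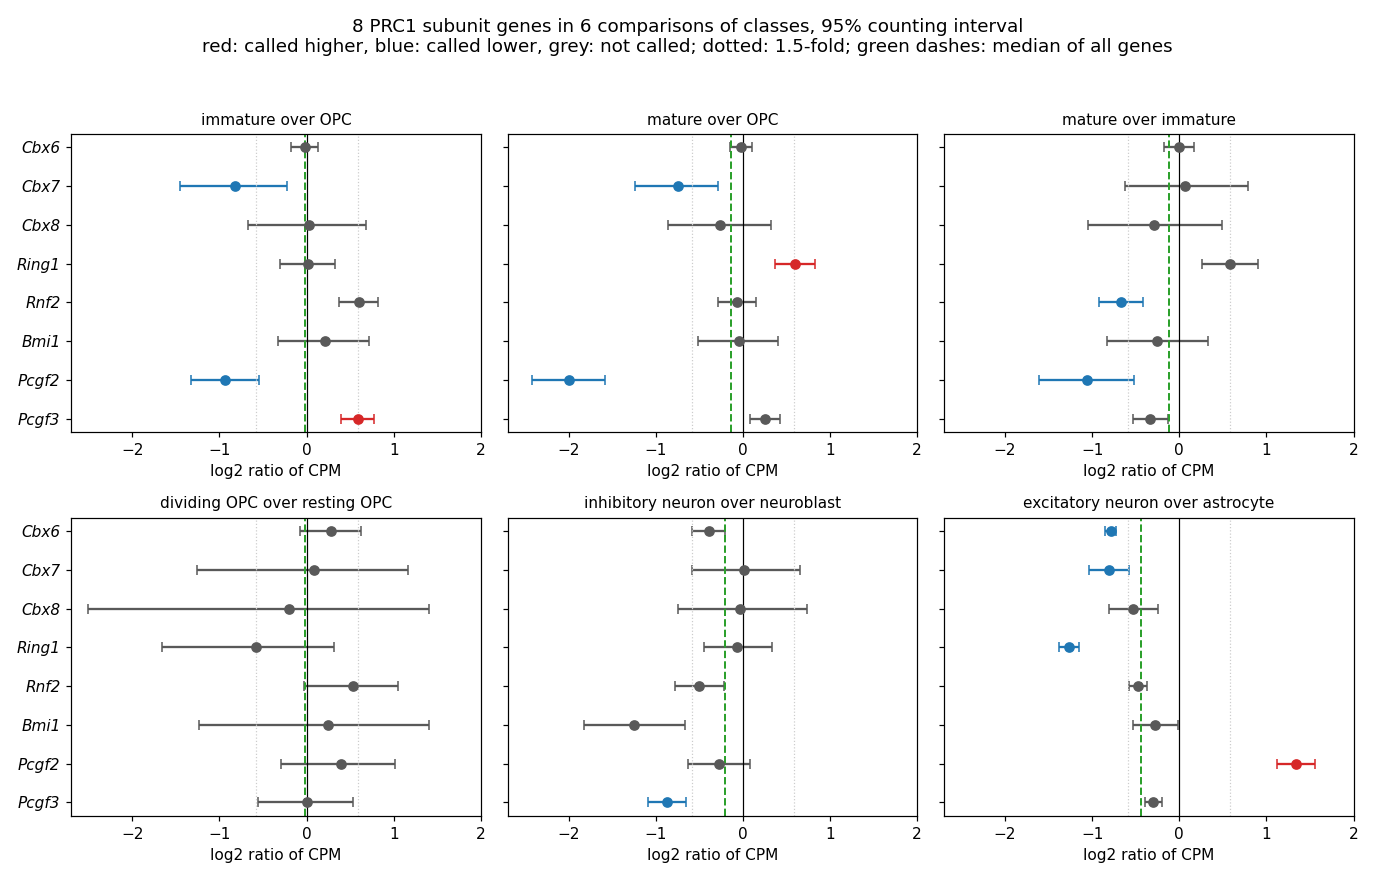
Log2 ratio of CPM for 8 PRC1 genes in 6 comparisons, with 95% counting intervals; red and blue points were called higher and lower, green dashes give the median over all genes and dotted lines 1.5-fold. Pcgf2 lies at -1.99 for mature over OPC and at 1.33 for excitatory neurons over astrocytes; the blue points for Ring1, Cbx7 and Cbx6 in the last panel change sign when UMIs are counted per nucleus.

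The other Polycomb genes were described by the same rule, from lists of 16 further PRC1 genes, 9 PRC2 genes, 3 H2A deubiquitinase genes and 3 HP1 chromobox genes, which bind another histone mark. Of the 16 PRC1 genes, 3 were called higher and 4 lower in mature oligodendrocytes than in OPCs, beside 10.8% and 21.5% of all genes, with a median log2 ratio of -0.04 beside -0.13 over all genes. Phc1, a polyhomeotic subunit of canonical PRC1, was at 61.1 against 20.4 CPM (log2 ratio 1.58), and Rybp, which replaces chromobox proteins in variant complexes, at 124 against 42.8 CPM (1.53). Pcgf5, a close relative of Pcgf3, was at 22.8 against 67.4 CPM (-1.56) and Pcgf6 at 17.1 against 32.0 CPM (-0.90). Auts2, which binds PCGF3 and PCGF5 complexes, was at 3455 against 1725 CPM (1.00). None of these directions was reversed with TMM scaling or per nucleus.

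For immature over OPC, 2 of the 16 further PRC1 genes were called higher, Rybp (1.14) and Bcor (0.86), and for mature over immature 2 higher and 4 lower, led by Pcgf5 (-1.84) and Bcor (-1.56), beside 8.01% of all genes called higher in the first comparison and 8.72% higher and 10.4% lower in the second. With TMM scaling, Bcor for mature over OPC (-0.49) and Pcgf6 and Mga for mature over immature (-0.54 and -0.53) lay inside 1.5-fold. Of the 8 PRC2 genes that passed the filter, Ezh2, the H3K27 methyltransferase, was called higher in mature oligodendrocytes than in OPCs (130 against 54.2 CPM, 1.26), as was Aebp2 (0.65), and Phf1 was called lower (-0.61), a ratio inside 1.5-fold with TMM scaling (-0.41) and per nucleus (-0.45). Ezh2 was also higher in dividing OPCs, at 230 against 46.2 CPM (2.31), together with Suz12 (0.93), the HP1 gene Cbx5 (1.17) and Asxl1 (0.81), beside 4.11% of all genes called higher. No gene of either PRC1 list was called there. Usp16, which removes ubiquitin from H2A, lay at 86.6 CPM in OPCs, 201 in immature and 91.0 in mature oligodendrocytes, called higher in the first step (1.21) and lower in the second (-1.14). No HP1 gene was called between the 3 oligodendrocyte stages.

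In inhibitory neurons against neuroblasts, all 3 HP1 genes were called lower (-1.10 to -0.89), as were Ezh2 (-1.78), Mtf2 (-0.63) and 4 of the 16 further PRC1 genes, led by Bcor (-1.13), while Phf1 was called higher (0.61), beside 12.9% of all genes called lower. With TMM scaling the ratios of Mtf2, Rybp, Kdm2b and Auts2 (-0.48 to -0.35) lay inside 1.5-fold. The summed markers of division were at 258 CPM in neuroblasts and 20.9 CPM in inhibitory neurons, and their part in these differences was not tested. In excitatory neurons against astrocytes, Mga of the further PRC1 genes (-0.63), 5 of 9 PRC2 genes, all 3 HP1 genes and the deubiquitinase Bap1 (-0.63) were called lower, beside 38.9% of all genes. With TMM scaling Mga, Eed, Jarid2, Bap1, Cbx1 and Cbx3 (-0.46 to -0.15) lay inside 1.5-fold. Per nucleus, Mga, Suz12, Jarid2, Eed, Cbx1, Cbx3 and Bap1 changed sign, and Ezh2 (-0.40), Phf19 (-1.47) and Cbx5 (-0.08) did not.

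The genes most like each member across the 14 classes were found by Pearson correlation of log2(CPM + 1) among 12961 genes with at least 1000 UMIs. The points share libraries and class depths, and the best of so many genes correlate highly by selection. Closest were Znhit1 for Cbx6 (r = 0.96), 5930430L01Rik for Cbx7 (0.90), Apobec1 for Cbx8 (0.93), Ccdc191 for Ring1 (0.94), Glyr1 for Rnf2 (0.97), Ube2e3 for Bmi1 (0.94), Patj for Pcgf2 (0.87) and 1110038B12Rik for Pcgf3 (0.94). Among the members themselves the closest pair was Cbx6 and Cbx8 (r = 0.71). Pcgf2 was the least similar member for 5 of the other genes, with r = -0.19 to Rnf2, -0.02 to Cbx6 and 0.01 to Pcgf3.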

How the data were processed

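Nuclei were isolated from frozen forebrain and captured with the 10x Genomics 3′ chemistry, and the count matrix deposited by the authors holds raw UMI counts per gene and barcode, joined over libraries (Cell Ranger 6.0.0 per the file headers). The submitters' processing notes name Cell Ranger 2.1.1 and mm10, and the study's methods describe STARsolo, removal of empty droplets, a doublet caller and imputation, so which steps shaped the matrix is not settled; no doublet caller was run here. Barcodes with 10% or more mitochondrial UMIs were left out (11 of 75878). A nucleus joined a class with at least 3 distinct markers and its list at 30% or more of the level of seed nuclei, after subtraction of background. No other list was allowed above 50% of the score of the nucleus's own list. This left 39590 nuclei (52.2%) in no class. Counts were summed per class and scaled to CPM, with TMM factors (edgeR 4.0.16, R 4.3.3) and UMIs per nucleus as alternatives. Exact Poisson, binomial and conditional binomial intervals (95%) cover counting error only. Scripts used Python 3.11.15, numpy 2.4.6, scipy 1.17.1 and pandas 2.3.3. The calling rule was run on simulated Poisson counts in which libraries differed in size only. That simulation cannot show how the rule behaves where libraries differ, as libraries 5 and 6 do. Genes were called past 1.5-fold with all libraries on the same side among genes with at least 50 UMIs. All 9 PRC1 genes were named, with the genes most correlated over classes and called genes of the other lists. For the latter the plan was at most 4 per list and comparison, which was exceeded in some comparisons. Some results for the other lists are not reported here. Members, lists and markers were chosen with earlier results of these data known. Alternatives were another scaling, a stricter gate, removal of the deepest or shallowest nuclei, the median of the libraries, no filter and each library left out; 2 other gate limits and the removal of libraries 5 and 6 were added after seeing the data. Because libraries could not be assigned to mice, no genotype was compared, and the joined matrix was treated as 1 sample, whose classes were described with ratios within each library and no test.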

Additional observations from a re-analysis of the deposited data

Results flagged for a closer look

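The 39590 nuclei that joined no class entered no comparison, yet they held the PRC1 genes at a summed level of 214.2 CPM, above the limit of 0.0120 CPM per gene that a count of 0 allows (3 counts). In these nuclei Cbx6 was at 85.9 CPM, Pcgf3 at 39.2, Rnf2 at 30.0, Ring1 at 20.9 and Pcgf2 at 18.4 CPM, close to the levels over all nuclei. They make up 52.2% of all kept nuclei, so this closeness is partly built in. No PRC1 gene had a library far from the other 5 by Dixon's criterion over all nuclei, with the largest ratio at 0.450 (Cbx2) against a critical value of 0.625. That criterion looks at a single end value and cannot pick out libraries 5 and 6, which lay apart together.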

How the results depend on the processing

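Over the alternatives, 79 of 91 counts of called PRC1 genes stayed within 1.5 times the reported count. Of 699 log2 ratios, 649 stayed within the counting interval of the reported ratio and 3 were reversed. Reversed were Cbx6 (0.58), Cbx7 (0.56) and Ring1 (0.10) for excitatory neurons over astrocytes, counted per nucleus. For immature over OPC the count of 3 became 1 without the deepest nuclei and 1 with the own list at 50% or more. For mature over OPC the count of 3 became 1 by the median of the libraries. For mature over immature the count of 2 became 1 per nucleus, where neither Pcgf2 nor Rnf2 was called and Ring1 was (0.90), 1 without the deepest nuclei and 1 with other lists at 25% or less. For inhibitory neurons over neuroblasts the count of 1 became 0 per nucleus and 3 without libraries 5 and 6, and leaving out each library gave 1 to 2. For dividing OPCs, leaving out each library gave 0 to 1. Counts with libraries left out come from a looser rule, since fewer libraries must agree, and have no share of all genes beside them. For excitatory neurons over astrocytes the count of 4 became 2 with TMM scaling and 0 under the stricter gate, which kept 1148 nuclei in all and gave a count in no other comparison. The cause of these changes was not tested. In 40 of 135 cases the class with the highest level changed or its level left the 95% Poisson interval of the reported value. Per nucleus, where only the class was compared, it changed for 6 of 9 genes. No paired analysis was possible because the libraries could not be assigned to mice, which concerns WT against Npc1-/- mice only. Classes could be paired by library, but such a test was not run, and ratios within each library are given. Depth limited Cbx2, Cbx8, Bmi1 and Cbx7 most, and all values in dividing OPCs.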

Other observations

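Loci that PRC1 is known to repress were sparse. Cdkn2a, which encodes the cell cycle inhibitor p16 and ARF, had 146 UMIs in all kept nuclei, and 6 of the 7 found in OPCs lay in the dividing OPCs, at 8.15 CPM (2.99 to 17.7), against 2.09 CPM (1.14 to 3.51) in microglia and 1.44 CPM in endothelial nuclei. Its neighbour Cdkn2b had 1226 UMIs and was highest in endothelial nuclei at 27.6 CPM (24.3 to 31.3), followed by dividing OPCs at 19.0 CPM (10.4 to 31.9) and mural nuclei at 7.51 CPM, and lowest in excitatory neurons at 0.846 CPM. The 39 Hox genes of the count table had 88 UMIs together, from 20 of them, and no class exceeded 1.61 CPM (mural nuclei, 3 UMIs). The summed level of the 9 PRC1 genes ran from 174 CPM in excitatory neurons to 314 CPM in ependymal nuclei, with Cbx6 at 31.8% to 49.4% of the sum. Per nucleus, excitatory neurons (18333 UMIs in 10048 nuclei) lay above ependymal nuclei (722 in 493), so this order holds for CPM only.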
